A study of Mus musculus with 12 samples.

Results

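The genes described here encode subunits of the mitochondrial respiratory chain and ATP synthase. They were taken by symbol from the 12 expression files: the Nduf, Uqcr, Cox4 to Cox8 and Atp5 families of the nuclear genome, and the mt-Nd, mt-Co, mt-Atp and mt-Cytb genes of mitochondrial DNA. The patterns matched 99 symbols, of which 7 pseudogene symbols were left out, so 92 members of 35492 symbols remained. Of these, 79 are nuclear (35 of complex I, 8 of complex III, 20 of complex IV and 16 of complex V) and 13 are mitochondrially encoded (7, 1, 3 and 2). Values are TPM, a length-corrected share of the transcripts of a library. Genes averaging 1 TPM or above in any group were tested, which took in 78 nuclear and all 13 mitochondrial members but not Cox8b.

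RNA was sequenced from CD4+ T cells of C57BL/6J mice aged 7 weeks, in 4 groups of 3 libraries. The Tfh_tumour group was taken from MC38 tumours, grown from a murine colon cancer line, as CD4+ T cells carrying CXCR5 and PD1, which mark follicular helper T (Tfh) cells. For Tfh_WT, naive cells of wild-type spleen and lymph nodes were grown on plates coated with CD3 and CD28 antibodies, in IL-6 and IL-21 at 50 ng/ml each, with IL-4, IFNγ and TGFβ blocked by antibody at 10 µg/ml each. For Tfh_OTII the same conditions were used on naive cells of OT-II mice, which carry a transgenic receptor for a peptide of ovalbumin. For Th1_WT, wild-type naive cells were grown on the same coating in IL-12 at 10 ng/ml with IL-4 blocked. By their titles, the 2 wild-type cultures lasted 24 h and that of OT-II cells 48 h; the protocol states 48 h throughout. Origin and time therefore differ between Tfh_OTII and the wild-type cultures by the titles, and their effects cannot be told apart. Nothing in the labels says that replicates were separate animals or cultures, so p-values here reflect library-to-library spread alone, and that spread may be technical.

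Complex I passes electrons from NADH to ubiquinone, complex III passes them on to cytochrome c, and complex IV passes them to oxygen. All 3 pump protons across the inner membrane, and complex V uses the resulting gradient to make ATP. Each of these complexes is built from subunits of both genomes, and activated T cells enlarge their mitochondrial mass as they leave quiescence.

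The mitochondrial genes are transcribed as long precursors and lie close together, in places overlapping, and parts of them are repeated in nuclear DNA. Both features touch how reads can be assigned, so the stretches concerned are shown. The transcript of mt-Atp8, a short subunit of complex V (GRCm38, chrM:7766-7969, plus strand), ends inside mt-Atp6 (chrM:7927-8607). Capitals mark the 43 bases that both genes hold.
mt-Atp8: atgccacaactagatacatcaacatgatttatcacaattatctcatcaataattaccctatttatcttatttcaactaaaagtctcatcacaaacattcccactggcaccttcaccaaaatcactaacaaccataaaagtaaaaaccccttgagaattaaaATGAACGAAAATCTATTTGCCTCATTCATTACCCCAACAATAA
The transcript of mt-Co2, a catalytic subunit of complex IV (chrM:7013-7696, plus strand), is repeated in a nuclear copy, Gm28661 (chr1:24614885-24615565, minus strand). The copy holds 681 of the 684 bases without a mismatch, and capitals mark the 3 bases at the end of mt-Co2 that it lacks.
mt-Co2 end: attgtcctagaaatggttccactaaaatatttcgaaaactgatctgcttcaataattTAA
Copies of the same kind lie beside it for mt-Atp6 (Gm10925, 678 of 681 bases), mt-Co3 (Gm28437, 783 of 784) and mt-Nd4l (Gm10222, 294 of 297). In a check of 31-base words, 100% of those of mt-Co2, 99.5% of mt-Atp6, 99.9% of mt-Co3, 98.9% of mt-Nd4l, 98.1% of mt-Nd3, 63.9% of mt-Co1 and 62.8% of mt-Nd4 also occurred in other genes. The share was 16.8% in mt-Nd5, 13.5% in mt-Nd2, 7.47% in mt-Atp8, 7.36% in mt-Nd6, 6.55% in mt-Cytb and 0% in mt-Nd1. Over the 12 libraries the files list 680 to 2627 TPM for Gm28661, 3.27 to 1344 TPM for Gm10925 and 10.9 to 524 TPM for Gm28437. The values of mt-Co2, mt-Atp6 and mt-Co3 are each uncertain by the amount listed at its own copy. For mt-Co1, 29.6% of words recur in Gm29216, listed at 286 to 1670 TPM. Some nuclear members share words too, such as 94.0% of those of Atp5o, 40.2% of those of Atp5g2 and 34.8% of those of Uqcrb.

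The 3 Th1_WT libraries stand apart from the rest. Size factors by the median-of-ratios method, which rescale libraries on the genes they share, were 0.444 to 0.637 in Th1_WT and 1.02 to 1.34 in the other 9 libraries. Over the 23308 genes tested, scaling shifted the median fold change (log2) by 0.63 in Tfh_WT against Th1_WT and by less than 0.10 in the other comparisons. "Rose" and "fell" are therefore used only for genes called in the same direction as deposited and after scaling, at an adjusted p under 0.05 (limma, Benjamini-Hochberg over all genes tested). T cell markers summed to 736 to 1655 TPM in Th1_WT and to at least 2201 TPM in each other library. Follicular helper markers summed to 612 to 1013 TPM in the 3 Tfh groups and 212 to 326 TPM in Th1_WT. Th1 markers summed to 106 to 272 TPM in Th1_WT and 206 to 269.5 TPM in Tfh_WT, with overlap. All marker sums here are as deposited, and scaling changes the comparison. For Tfh_WT against Th1_WT, Th1 markers had a median (log2) of 0.87 as deposited and -0.11 after scaling. T cell markers had 1.44 and 0.38, and follicular helper markers 1.73 and 0.71. After scaling, 1 of the 8 Th1 markers was called higher in Tfh_WT and 1 lower. The Th1_WT libraries are therefore named by their label. Regulatory T cell markers summed to 1237 to 2469 TPM in Tfh_tumour, which overlaps the 1038 to 1357 TPM of Tfh_WT, and to at most 1357 TPM elsewhere. Macrophage and monocyte markers (15 of 15 listed genes found) summed to 114 to 1003 TPM in Tfh_tumour and to at most 54.9 TPM elsewhere. Dendritic cell markers summed to 270 to 788 TPM in Tfh_tumour against 151 to 359 TPM elsewhere, B cell markers to 47.4 to 50.7 against 12.4 to 32.4 TPM, and neutrophil markers reached 495 TPM in Tfh_tumour against at most 47.0 TPM. None of the defining macrophage, dendritic or B cell markers was at 0 in every library of a group. The part of these cells in the differences below was not tested. In bulk RNA, fewer cells of a type and less RNA per cell cannot be told apart.

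The nuclear and the mitochondrial sets did not move together. The 79 nuclear genes summed to 5913, 5837 and 4668 TPM in the Tfh_tumour libraries, 8621, 7480 and 7222 TPM in Tfh_WT, and 9444, 9396 and 9633 TPM in Tfh_OTII. All 3 tumour libraries lay below all 6 libraries of both Tfh cultures. In Th1_WT the nuclear sum was 3292, 4840 and 6153 TPM, a range that overlaps the tumour group. On scaled values the nuclear sums were 5480, 4349 and 3796 in Tfh_tumour, 8250, 7043 and 6038 in Tfh_WT, 7106, 8473 and 9426 in Tfh_OTII, and 6530, 10910 and 9658 in Th1_WT. There the tumour libraries lay below all 9 others, those of Th1_WT included. The 13 mitochondrial genes summed to 32570, 26220 and 25210 TPM in Tfh_tumour, 24180, 21590 and 24370 TPM in Tfh_WT, and 23590, 26850 and 24100 TPM in Tfh_OTII. Here the tumour libraries lay above those of Tfh_WT and overlapped those of Tfh_OTII. Th1_WT was the most scattered group, with 9703, 18850 and 3360 TPM. On scaled values the mitochondrial sums were 30190, 19540 and 20490 in Tfh_tumour, 23140, 20330 and 20380 in Tfh_WT, 17750, 24210 and 23580 in Tfh_OTII, and 19250, 42490 and 5274 in Th1_WT. Tfh_tumour overlapped every other group there, so that its mitochondrial sum stood above Tfh_WT only as deposited.

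**Figure D1:**
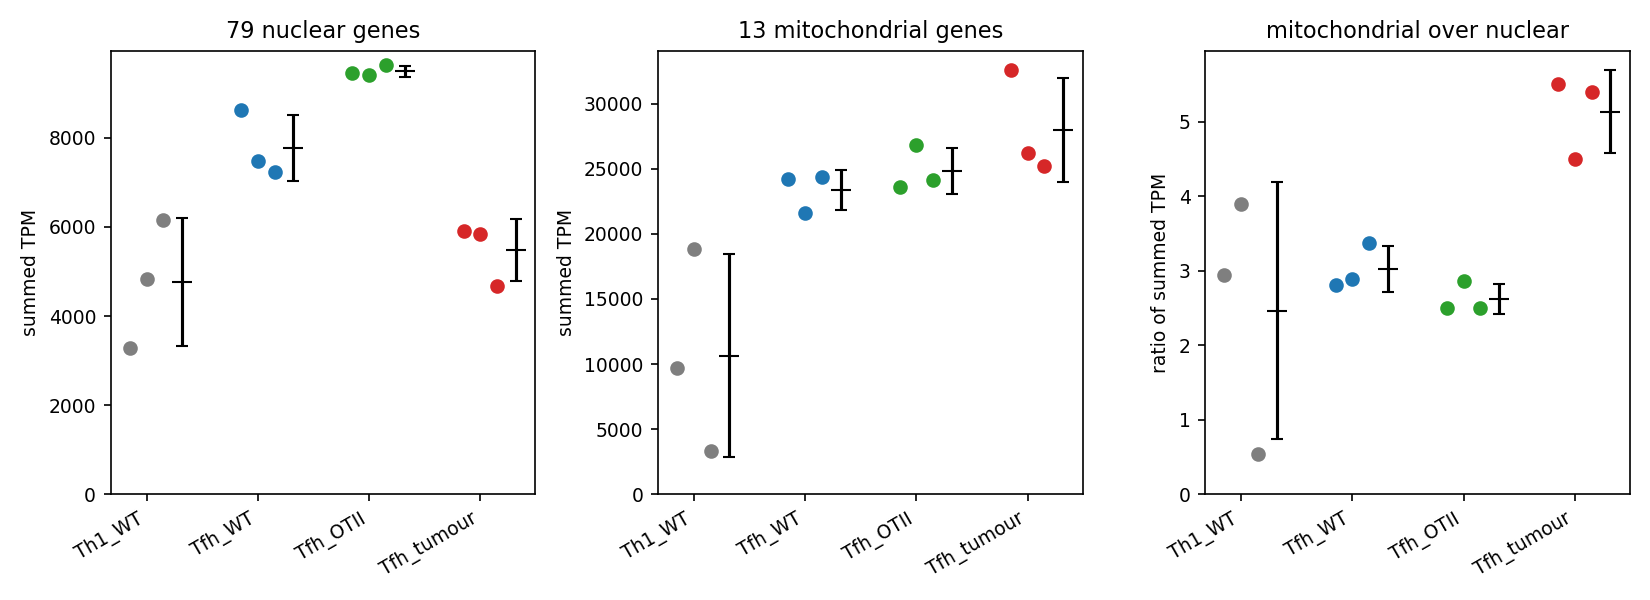
Summed TPM of the 79 nuclear genes (left), of the 13 mitochondrial genes (middle) and the ratio of the second to the first (right), as deposited; points are libraries, black marks are means with SD (n = 3). The ratio is 4.49 to 5.51 in Tfh_tumour and at most 3.90 in the other 9 libraries, and Th1_WT replicate 3 is the lowest at 0.546.

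The ratio of mitochondrial to nuclear TPM, which no scaling of a library can change, was 5.51, 4.49 and 5.40 in Tfh_tumour. It was 2.80, 2.89 and 3.38 in Tfh_WT, 2.50, 2.86 and 2.50 in Tfh_OTII, and 2.95, 3.90 and 0.546 in Th1_WT. Group means were 5.13 ± 0.56 in Tfh_tumour, 3.02 ± 0.31 in Tfh_WT, 2.62 ± 0.21 in Tfh_OTII and 2.46 ± 1.73 in Th1_WT (SD, n = 3), given as a description without a test. Every tumour library lay above the 9 others, and the mean of Tfh_tumour did not fall below 4.95 when 1 of its libraries was left out. The lead over the cultures was not the same in each complex. For complex V the ratio was 5.05 to 6.46 in Tfh_tumour against at most 3.33 elsewhere, and for complex III 2.26 to 3.19 against at most 1.90. For complex I it was 4.19 to 6.16 against at most 4.47, and for complex IV 3.68 to 6.20 against at most 5.40, so that in these the groups overlapped. The separation also leaned on the shortest mitochondrial genes: without mt-Atp8 and mt-Nd4l the ratio was 2.79 to 3.83 in Tfh_tumour, above the 2.53 of the highest Tfh_WT library but overlapping Th1_WT, which reached 3.07. With the nuclear copies counted as mitochondrial it was 5.45 to 6.21 in Tfh_tumour and at most 4.71 elsewhere.

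The comparison of Tfh_tumour with Tfh_OTII held most of the calls among nuclear members. Of the 78 tested, 25 fell in Tfh_tumour and 0 rose, where 6.86% of all genes tested fell and 6.77% rose. As deposited, 26 were called lower (7.29% of all genes) and 0 higher (7.97%), and after scaling 31 lower (8.29%) and 0 higher (7.02%). The median log2 fold change of the nuclear members was -0.65 as deposited and -0.73 after scaling, against 0.06 and 0.01 over all genes. The calls were spread over all 4 complexes: 11 of 35 genes of complex I, 4 of 8 of complex III, 5 of 19 tested of complex IV and 5 of 16 of complex V. Of the 13 mitochondrial genes none was called (median 0.05 as deposited, -0.03 after scaling), and at an unadjusted p under 0.05 limma gave 1 lower as deposited (13.5% of all genes) and 0 after scaling (15.3%), and 0 higher by either. For 55 of the 79 nuclear members every Tfh_tumour library lay below every Tfh_OTII library, where 18.2% of all genes tested did, and for 2 above, where 16.8% did. The number that fell depended on single libraries, with 9 left without Tfh_OTII replicate 3, 15 without Tfh_OTII replicate 2 and 12 without Tfh_tumour replicate 3. The share of all genes called was not computed for these fits with a library left out. In a fit without the Th1_WT libraries, added after seeing the data, 43 fell, where 10.6% of all genes did. There 0 mitochondrial genes were called both ways, though mt-Co2 was called lower and mt-Nd2 higher as deposited.

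**Figure D2:**
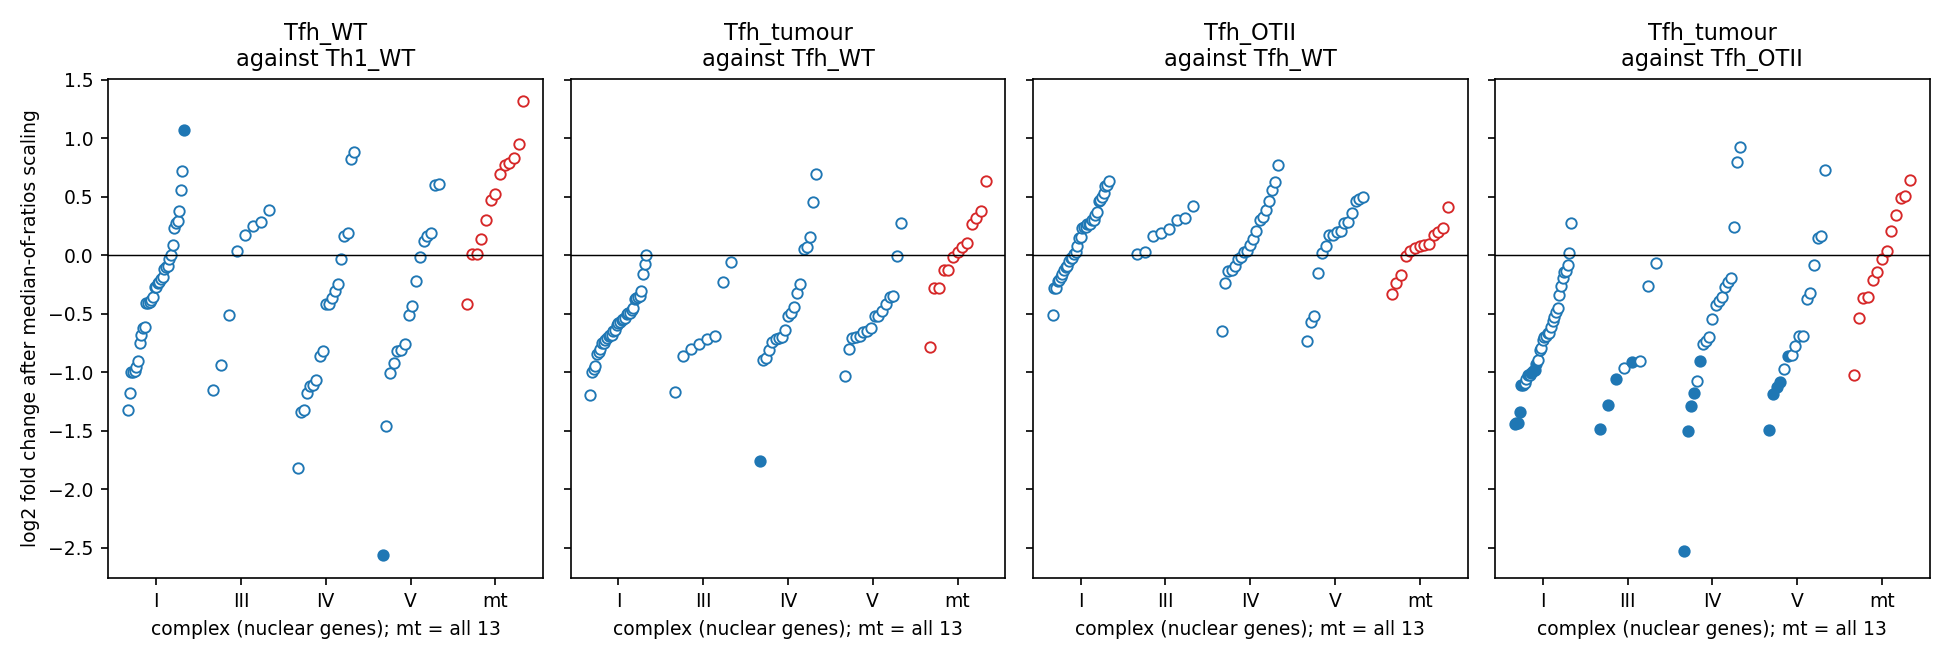
Log2 fold change after median-of-ratios scaling of the 78 nuclear (blue) and 13 mitochondrial (red) members tested, sorted within each complex, in the 4 comparisons; filled points were called in the same direction as deposited and after scaling. In Tfh_tumour against Tfh_OTII the filled points are 25 nuclear genes, all below 0, while no mitochondrial point is filled in any panel.

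Complex I is the entry point for electrons from NADH. The accessory subunit Ndufs5 (chr4:123712710-123718202, minus strand) had 74.3, 60.02 and 46.9 TPM in Tfh_tumour and 156, 165 and 141 TPM in Tfh_OTII, a log2 fold change of -1.36 ± 0.25 (SE; adjusted p = 0.00305). The groups did not overlap, and Tfh_WT lay between them at 108, 97.8 and 85.1 TPM. For Ndufs5, 26.5% of 31-base words also occur in another gene, BC002163. Ndufc1, an accessory subunit of the membrane arm (chr3:51404677-51408988, minus strand), had 81.3, 90.6 and 44.6 TPM in Tfh_tumour and 188, 163 and 186 TPM in Tfh_OTII. Ndufa9, Ndufa10, Ndufb3, Ndufb8, Ndufc2, Ndufs3, Ndufs4 and Ndufv2 also fell, by 0.86 to 1.26 log2 as deposited.

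Not every core subunit of complex I followed. Ndufs1, which carries iron-sulfur clusters of the NADH-oxidising arm (chr1:63143596-63176833, minus strand), had 83.7, 79.5 and 74.2 TPM in Tfh_tumour and 55.4, 65.7 and 63.7 TPM in Tfh_OTII. As deposited every tumour library lay above every OT-II library, but after scaling the groups overlapped. The log2 fold change of 0.36 ± 0.22 was not called (adjusted p = 0.312). Ndufv1, the subunit that binds NADH, missed the threshold as deposited (-0.98 ± 0.36, adjusted p = 0.0902) and passed it once scaled (-1.06, adjusted p = 0.0416).

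In complex III, 4 genes fell. Uqcrh, the hinge protein beside cytochrome c1 (chr4:116066965-116075071, minus strand), had 159, 197 and 106 TPM in Tfh_tumour, 386, 384 and 427 TPM in Tfh_OTII, and 348, 303 and 271 TPM in Tfh_WT. No tumour library reached any library of either Tfh culture, and the log2 fold change against Tfh_OTII was -1.41 ± 0.34 (adjusted p = 0.0137). Uqcrc1, a core protein of the matrix side (chr9:108936633-108949623, plus strand), had 79.4, 76.1 and 70.9 TPM in Tfh_tumour and 173, 163 and 188 TPM in Tfh_OTII (-1.20 ± 0.29, adjusted p = 0.0154). The Rieske iron-sulfur protein gene Uqcrfs1 and Uqcrq, a small subunit, fell by 0.84 and 0.98 log2. Uqcrc2, the partner core protein of Uqcrc1, had 65.5, 55.9 and 72.6 TPM in Tfh_tumour and 74.7, 68.7 and 76.1 TPM in Tfh_OTII, with overlapping groups (-0.18 ± 0.21, adjusted p = 0.606). Uqcrb had 206, 230 and 128 TPM in Tfh_tumour and 192, 175 and 177 TPM in Tfh_OTII, again with overlap (0.01 ± 0.32, adjusted p = 0.990).

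Complex IV carried the largest single difference among the members. Cox6b2, known as the testis form of a subunit on the outer face of the complex (chr7:4751792-4753094, minus strand), was listed at 1.41, 1.53 and 0.457 TPM in Tfh_tumour, against 14.6, 8.85 and 11.4 TPM in Tfh_OTII. It had 6.53, 6.68 and 4.79 TPM in Tfh_WT and 3.21, 1.97 and 2.35 TPM in Th1_WT. As deposited no group overlapped another, though all values are low. Its log2 fold change was -2.58 ± 0.29 against Tfh_OTII (adjusted p = 0.000144) and -1.74 ± 0.29 against Tfh_WT (adjusted p = 0.0101), both on the log2(TPM + 1) scale, which understates changes of low genes. Cox6b1, the widely expressed form, had 91.5, 91.3 and 50.4 TPM in Tfh_tumour and 111, 91.6 and 111 TPM in Tfh_OTII, and was not called (-0.47 ± 0.31, adjusted p = 0.359). Cox7b (chrX:106015700-106022450, plus strand), a small subunit of the membrane part, had 150, 150 and 107 TPM in Tfh_tumour and 357, 361 and 367 TPM in Tfh_OTII (-1.42 ± 0.29, adjusted p = 0.00563). Cox4i1, a structural subunit that binds ATP, and Cox6c and Cox5b fell as well, by 1.10, 1.21 and 0.82 log2. Ndufa4, once assigned to complex I and now counted with complex IV, was called only as deposited (-0.99 ± 0.26, adjusted p = 0.0220; 0.0507 once scaled). Cox5a had 65.1, 47.2 and 62.5 TPM in Tfh_tumour and 69.4, 70.9 and 75.5 TPM in Tfh_OTII, and was not called (-0.31 ± 0.22, adjusted p = 0.386).

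In complex V, Atp5a1, which encodes the alpha subunit of the catalytic head, had 168, 130 and 170 TPM in Tfh_tumour and 308, 307 and 322 TPM in Tfh_OTII (-1.01 ± 0.26, adjusted p = 0.0180). Atp5b, the beta subunit, had 281, 234 and 280 TPM against 439, 454 and 460 TPM; these groups did not overlap either, but Atp5b was not called. Atp5k, subunit e of the membrane part (chr5:108433244-108434448, minus strand), had 148, 169 and 91.7 TPM in Tfh_tumour and 386, 351 and 323 TPM in Tfh_OTII (-1.41 ± 0.27, adjusted p = 0.00409). Atp5j, coupling factor 6 of the stalk (chr16:84827866-84835625, minus strand), had 206, 184 and 144 TPM in Tfh_tumour and 369, 368 and 404 TPM in Tfh_OTII (-1.10 ± 0.21, adjusted p = 0.00372). Atp5f1 and Atp5o of the stalks fell by 1.05 and 0.78 log2, and of the 31-base words of Atp5o, 94.0% recur in other gene entries, among them 51.4% in Donson and 42.6% in a second entry named Atp5o. Atp5l, subunit g, had 93.5, 91.3 and 59.5 TPM in Tfh_tumour and 75.2, 73.3 and 55.6 TPM in Tfh_OTII, with overlap and no call.

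Because many nuclear members were lower together, the 250 bases before their start sites were searched for 3 words known from promoters of respiratory genes: CGCATGCG (the centre of the NRF1 site), AAGATGGC (YY1) and CCGGAAG (ETS family, which includes GABPA), on both strands. Windows from RefSeq (GRCm38.p6) were at hand for 63 of the 79 nuclear members. The NRF1 word was in 7 of the 63 (11.1%) and in 1.75% of all 27025 genes with a window, the YY1 word in 1 (1.59%, against 1.83%) and the ETS word in 11 (17.5%, against 7.83%). With a G required before the NRF1 word and a C after it, the count was 4 of 63 (6.35%, against 0.877% of all genes). Of the members that fell in Tfh_tumour against Tfh_OTII, 19 had a window; 2 held the NRF1 word (1 with the added G and C), 1 the YY1 word and 3 the ETS word. For each word the member with the lowest fold change among these is shown, with matches in capitals, as the window chr5:108434400-108434649 for Atp5k, chr16:84834977-84835226 for Atp5j (1 of its 2 RefSeq start sites) and chr4:116075071-116075320 for Uqcrh, each on the minus strand and written 5′ to 3′.
Atp5k: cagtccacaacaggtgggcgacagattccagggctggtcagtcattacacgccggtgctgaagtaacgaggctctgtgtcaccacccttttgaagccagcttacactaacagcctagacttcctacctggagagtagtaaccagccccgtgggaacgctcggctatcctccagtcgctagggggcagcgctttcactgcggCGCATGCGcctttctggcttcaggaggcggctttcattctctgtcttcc
Atp5j: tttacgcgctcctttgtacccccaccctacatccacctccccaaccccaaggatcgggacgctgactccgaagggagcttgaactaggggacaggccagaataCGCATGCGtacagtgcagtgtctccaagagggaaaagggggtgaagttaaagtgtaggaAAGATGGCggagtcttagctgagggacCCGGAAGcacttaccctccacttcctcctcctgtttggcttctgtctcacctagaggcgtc
Uqcrh: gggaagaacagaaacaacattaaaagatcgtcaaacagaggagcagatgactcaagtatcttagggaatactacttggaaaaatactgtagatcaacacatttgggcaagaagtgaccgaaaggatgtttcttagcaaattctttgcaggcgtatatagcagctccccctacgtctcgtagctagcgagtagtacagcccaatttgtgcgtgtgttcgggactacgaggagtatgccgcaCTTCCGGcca
The Atp5k window holds the NRF1 word, the Atp5j window all 3 words, and the Uqcrh window the ETS word in reverse complement. For Atp5j the window was picked as the first of its windows with a match. It lies wholly inside the annotated gene (chr16:84827866-84835625). These are matches of letters only. The NRF1 and ETS words were no more frequent in the 19 members that fell than in all 63 with a window. The 1 member with the YY1 word was among the 19. Nrf1 itself was listed at 26.2 to 34.7 TPM in Tfh_tumour and 34.9 to 36.0 TPM in Tfh_OTII, and Gabpa at 39.4 to 53.0 and 51.3 to 55.9 TPM. None of the 14 listed nuclear regulators of respiration was called both ways in any of the 4 comparisons.

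In Tfh_tumour against Tfh_WT, a comparison that shares its tumour libraries with the one above, the nuclear members leaned the same way but were rarely called. Cox6b2 alone fell (1 of 78, where 0.875% of all genes fell) and 0 rose (0.991%). As deposited 1 was called lower (0.944% of all genes) and 0 higher (1.15%), and after scaling 2 lower (1.22%) and 0 higher (1.12%). At an unadjusted p under 0.05, 28 were lower and 1 higher as deposited, where 5.74% and 8.28% of all genes were, and 39 and 0 after scaling, where 7.42% and 6.05% were. The median log2 fold change of the nuclear members was -0.47 as deposited and -0.61 after scaling, against 0.10 and 0.00 over all genes. For 44 of the 79 every Tfh_tumour library lay below every Tfh_WT library, where 10.4% of all genes tested did, and after scaling for 46, where 13.4% did. Ndufv3, a subunit beside the NADH site, had 55.5, 85.6 and 48.7 TPM in Tfh_tumour and 151, 117 and 120 TPM in Tfh_WT, without overlap (-1.05 ± 0.35, adjusted p = 0.168). Ndufb11, an accessory subunit, missed the threshold as deposited (-0.87 ± 0.23, adjusted p = 0.0780) and passed it once scaled (adjusted p = 0.0258). The call of Cox6b2 was lost without Tfh_WT replicate 1 and without Tfh_WT replicate 2, whereas 2 nuclear members fell without Th1_WT replicate 1 and 4 without Th1_WT replicate 3. For these fits too the share of all genes was not computed. In the added fit without the Th1_WT libraries 6 genes fell (among them Cox6b2, Ndufb11, Ndufc2, Ndufv3 and Uqcrh), where 2.26% of all genes did.

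The mitochondrial genes gave no call in this comparison (0 of 13, and 0 at an unadjusted p under 0.05 by limma; medians 0.17 as deposited and 0.03 after scaling). For 4 of them every tumour library lay above every Tfh_WT library as deposited (13.4% of all genes), and for 1 below (10.4%). The 4 were mt-Atp8, mt-Nd2, mt-Nd4 and mt-Nd6, and the 1 was mt-Co2. After scaling there was 1 above (10.2% of all genes) and 1 below (13.4%).

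Tfh_OTII against Tfh_WT gave no call among 78 nuclear and 13 mitochondrial members with limma, where 0.652% of all genes rose and 1.15% fell. As deposited, 0.987% of all genes were called higher and 1.39% lower, and after scaling 0.678% and 1.22%. At an unadjusted p under 0.05, 7 nuclear members were higher and 0 lower as deposited, where 7.16% and 6.08% of all genes were, and no mitochondrial member was either. After scaling 3 nuclear members were higher and 2 lower, where 5.62% and 6.43% of all genes were, and again no mitochondrial member. The nuclear median was 0.23 as deposited and 0.17 after scaling. Every Tfh_OTII library lay above every Tfh_WT library for 36 of the 79 nuclear members, where 21.0% of all genes did, but for 16 after scaling, where 12.5% did. A fit of these 2 groups alone called 17 of 77 nuclear genes higher and 1 lower as deposited, where it called 10.2% of all genes higher and 2.96% lower. The nuclear sum was 9491 ± 125 TPM in Tfh_OTII and 7774 ± 745 TPM in Tfh_WT (SD, n = 3).

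Tfh_WT against Th1_WT depended on the scaling. As deposited, 35 nuclear members were called higher in Tfh_WT and 1 lower, where 41.1% of all genes were called higher and 0.511% lower. After scaling, 1 was called higher and 20 lower, where 9.07% and 5.34% of all genes were. The nuclear median was 0.66 as deposited, below the 0.78 of all genes, and -0.36 after scaling, below their 0.15. Every Tfh_WT library lay above every Th1_WT library for 36 nuclear members (55.6% of all genes) and below for 1 (0.738%), but after scaling for 5 (21.0%) and 23 (12.4%). Ndufv3 rose, as did 9.07% of all genes, and Atp5g1 fell, as did 0.506%. Ndufv3 (chr17:31520115-31531331, plus strand) had 16.7, 25.9 and 55.1 TPM in Th1_WT and 151, 117 and 120 TPM in Tfh_WT, a log2 fold change of 2.12 ± 0.35 as deposited (adjusted p = 0.000605) and 1.07 ± 0.31 once scaled (adjusted p = 0.0377). Its call was lost when any of the 3 Tfh_WT libraries, Th1_WT replicate 1, or Tfh_OTII replicate 2 or 3 was left out, and without Th1_WT replicate 2 there were 4 nuclear and 2 mitochondrial genes that rose. All 13 mitochondrial genes had positive fold changes as deposited (median 1.60) and 10 were called, but after scaling 0 were (median 0.53), with 2 higher at an unadjusted p under 0.05, where 18.3% of all genes were. The 2 libraries at the extremes of Th1_WT weigh on this: as deposited, 13 were called without Th1_WT replicate 2, which had the highest mitochondrial sum, and 6 without replicate 3, which had the lowest. Without replicate 3 the mitochondrial median was 0.79 as deposited and -0.46 after scaling, where 9 of the 13 fold changes lay below 0 and 0 were called. Without any 1 of the Tfh_WT libraries 5 were called. The share of all genes called was not computed for the fits of this comparison with a library left out, so these counts have no background beside them.

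Atp5g1, Atp5g2 and Atp5g3 encode the same mature subunit, the c-ring of complex V that turns as protons pass, behind different import signals. Atp5g1 (chr11:96068852-96075670, minus strand) had 76.8, 122 and 151 TPM in Th1_WT and 44.1, 34.4 and 39.3 TPM in Tfh_WT, so that every Th1 library lay above every Tfh library. Its log2 fold change in Tfh_WT against Th1_WT was -1.50 ± 0.32 (adjusted p = 0.00282), and on scaled values -2.56 ± 0.33 (adjusted p = 0.000467). It was called lower under each of the alternatives tried, at adjusted p-values of up to 0.0146. Atp5g3 was level as deposited, with 64.8, 101 and 112 TPM in Th1_WT and 121, 95.1 and 106 TPM in Tfh_WT, and overlapping groups. Atp5g2 had 24.0, 29.2 and 7.35 TPM in Th1_WT and 50.8, 41.5 and 34.9 TPM in Tfh_WT. Of the TPM of the 3 genes, Atp5g1 took 46.4%, 48.5% and 55.9% in Th1_WT, 20.5%, 20.1% and 21.9% in Tfh_WT, 17.3%, 13.9% and 12.5% in Tfh_OTII, and 27.4%, 20.8% and 27.4% in Tfh_tumour. These shares do not depend on the scaling of a library; the groups of Tfh_WT and Tfh_tumour overlapped, and Th1_WT stood above all 9 others. The ratio of Atp5g1 to Atp5g3 was 1.19 to 1.35 in Th1_WT and at most 0.565 elsewhere. Atp5g3 has no 31-base word in common with another gene, whereas 14.1% of those of Atp5g1 recur in other genes. The bases just after the RefSeq start site were found in 0 GENCODE transcripts of Atp5g1 and in 2 of Atp5g3, so the start site used for Atp5g1 was not matched there. The windows before both start sites (chr11:96075632-96075881 and chr2:73911327-73911576, GRCm38.p6, minus strand) are shown for comparison, and neither holds any of the 3 words.
Atp5g1: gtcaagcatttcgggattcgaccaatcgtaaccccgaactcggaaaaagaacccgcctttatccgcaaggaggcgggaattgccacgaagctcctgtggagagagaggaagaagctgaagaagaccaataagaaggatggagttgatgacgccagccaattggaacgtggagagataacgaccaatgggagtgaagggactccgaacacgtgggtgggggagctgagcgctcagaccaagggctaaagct
Atp5g3: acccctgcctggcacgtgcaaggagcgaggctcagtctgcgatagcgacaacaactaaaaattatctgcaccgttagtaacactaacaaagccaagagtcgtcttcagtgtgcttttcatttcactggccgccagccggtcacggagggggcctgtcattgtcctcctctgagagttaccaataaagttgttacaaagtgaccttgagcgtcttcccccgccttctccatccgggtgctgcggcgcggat

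**Figure D3:**
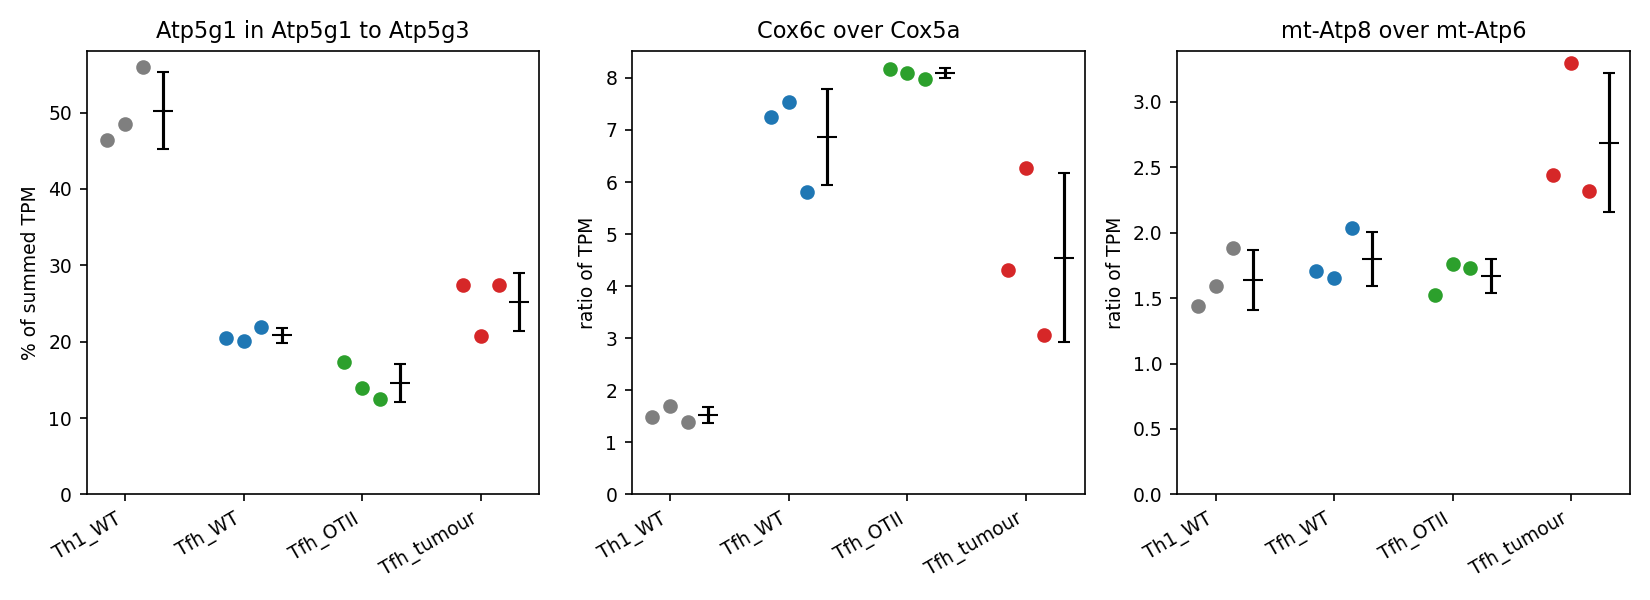
Balances within complexes by library: the share of Atp5g1 in the TPM of the 3 c-ring genes, and the TPM ratios Cox6c over Cox5a and mt-Atp8 over mt-Atp6; points are libraries, black marks are means with SD (n = 3). Th1_WT stands apart in the Atp5g1 share (46.4% to 55.9%) and in Cox6c over Cox5a (1.40 to 1.69), Tfh_tumour in mt-Atp8 over mt-Atp6 (2.32 to 3.30). mt-Atp8 and mt-Atp6 overlap, and mt-Atp6 is taken without its nuclear copy Gm10925.

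Other balances between subunits of 1 complex also split the groups. Cox6c, a small subunit of complex IV (chr15:35925886-35938246, minus strand), had 88.4, 133 and 125 TPM in Th1_WT, 526, 406 and 360 TPM in Tfh_WT, 568, 574 and 603 TPM in Tfh_OTII, and 280, 296 and 191 TPM in Tfh_tumour. Its ratio to Cox5a was 1.49, 1.69 and 1.40 in Th1_WT, 7.25, 7.53 and 5.81 in Tfh_WT, 8.17, 8.10 and 7.98 in Tfh_OTII, and 4.31, 6.28 and 3.06 in Tfh_tumour. Th1_WT lay below all 9 others, and Tfh_OTII above all 9 others. Complex III took a smaller share of nuclear respiratory TPM in Th1_WT (11.4%, 12.3% and 11.5%) than in any other library (13.2% to 14.3%). Forms known from other tissues stayed low. Cox4i2, the lung form of Cox4i1, was at most 2.16 TPM, Cox7a1 and Cox6a2, known from heart and skeletal muscle, at most 2.06 and 5.95 TPM, and Cox7b2 at most 2.56 TPM. Ndufa4l2, a hypoxia-induced relative of Ndufa4, had 1.21, 1.10 and 1.34 TPM in Tfh_tumour and reached 5.47 TPM in Th1_WT replicate 3. Cox8b, Cox8c and Cox7b2 were each listed at 0 in 1 library or more, while Cox8a had 38.1 to 83.0 TPM over the 12 libraries.

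Within the mitochondrial set, the genes kept different shares in the 4 groups. mt-Atp8 had 8459, 8769 and 5589 TPM in Tfh_tumour, 4422, 3822 and 4880 TPM in Tfh_WT, 4221, 4828 and 4542 TPM in Tfh_OTII, and 1459, 3437 and 311 TPM in Th1_WT. As deposited no other group reached the tumour libraries, but after scaling Th1_WT replicate 2 overlapped them. The gene was not called by limma in Tfh_tumour against Tfh_WT (0.78 ± 0.64, adjusted p = 0.699) or against Tfh_OTII (0.72 ± 0.64, adjusted p = 0.502). These errors draw on the spread of all 12 libraries, the scattered Th1_WT group included. In the added limma fit without that group, mt-Atp8 had an SE of 0.24 in both comparisons. mt-Atp8 was still not called there (adjusted p = 0.0973 and 0.0576 as deposited). It took 26.0%, 33.4% and 22.2% of mitochondrial TPM in Tfh_tumour and 9.25% to 20.0% in the other 9 libraries. mt-Atp6, which overlaps it and encodes the proton channel subunit of complex V, had 3460, 2660 and 2409 TPM in Tfh_tumour and 2587, 2306 and 2400 TPM in Tfh_WT. The ratio of mt-Atp8 to mt-Atp6 was 2.45, 3.30 and 2.32 in Tfh_tumour, 1.71, 1.66 and 2.03 in Tfh_WT, 1.52, 1.76 and 1.73 in Tfh_OTII, and 1.44, 1.59 and 1.88 in Th1_WT. Both genes come from 1 precursor, and 7.47% of the 31-base words of mt-Atp8 lie in the shared stretch shown above. The mt-Atp8 transcript has 204 bases, and 99.5% of the words of mt-Atp6 recur in other genes. The mt-Atp6 copy Gm10925 had 83.5, 798 and 198 TPM in Tfh_tumour, 249.5, 88.4 and 170 in Tfh_WT, and 933, 1026 and 1344 in Tfh_OTII. A ratio with this copy added was not computed. How far read assignment shapes the ratio was not tested.

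mt-Co2 went the other way. With its nuclear copy added, the tumour libraries overlapped those of Tfh_WT and still lay below all 3 of Tfh_OTII. It had 1353, 721 and 1217 TPM in Tfh_tumour, 1720, 1656 and 1592 TPM in Tfh_WT and 1762, 2419 and 1972 TPM in Tfh_OTII, so that every tumour library lay below both cultures. Its log2 fold change was -0.64 ± 0.38 against Tfh_WT (adjusted p = 0.511) and -0.94 ± 0.38 against Tfh_OTII (adjusted p = 0.116). In the added limma fit without the Th1_WT libraries it was called lower against Tfh_OTII as deposited (adjusted p = 0.0217), but not after scaling (0.0641). The copy Gm28661 was listed at 2430, 2627 and 1553 TPM in Tfh_tumour, 1579, 1465 and 1871 TPM in Tfh_WT and 2168, 2275 and 1858 TPM in Tfh_OTII. The sum of both was 3783, 3348 and 2770 TPM in Tfh_tumour and 3300, 3122 and 3463 TPM in Tfh_WT, with overlap, against 3930, 4694 and 3829 TPM in Tfh_OTII. mt-Co1, the catalytic core of complex IV, had 3441, 2941 and 3171 TPM in Tfh_tumour and 3343, 2835 and 3286 TPM in Tfh_WT, and mt-Co3 had 1752, 1003 and 1476 against 1551, 1424 and 1554 TPM, both with overlap.

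**Figure D4:**
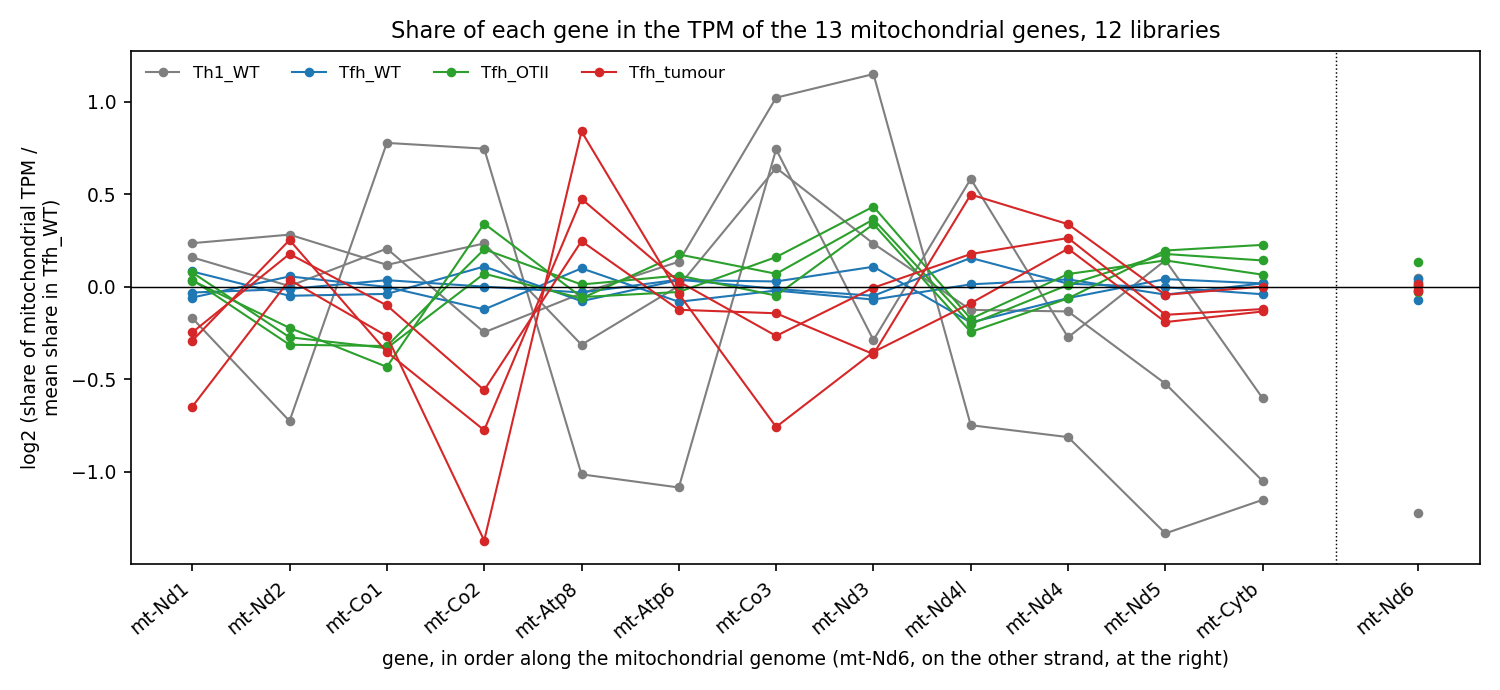
Share of each mitochondrial gene in the TPM of the 13, as log2 of its ratio to the mean share in Tfh_WT, in order along the mitochondrial genome, with mt-Nd6 of the other strand at the right; each line is a library. Tfh_tumour (red) is high at mt-Atp8 and low at mt-Co2, and Th1_WT (grey) is low at mt-Cytb, with 3.50% to 5.12% of mitochondrial TPM against 7.09% to 9.10% in the other groups.

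As deposited, Th1_WT had less of the gene farthest along the plus strand. mt-Cytb, the only mitochondrial subunit of complex III (chrM:14145-15288), had 364, 660 and 172 TPM in Th1_WT, 1828, 1700 and 1920 TPM in Tfh_WT, 2025, 2185 and 2193 TPM in Tfh_OTII and 2330, 1859 and 1962 TPM in Tfh_tumour. As deposited Th1_WT lay below all 9 others. The log2 fold change in Tfh_WT against Th1_WT was 2.39 ± 0.39 as deposited (adjusted p = 0.000533) and 1.32 ± 0.49 once scaled (adjusted p = 0.0928), so that mt-Cytb was called only as deposited. Its ratio to mt-Nd1 (chrM:2751-3707), a gene with no shared 31-base word, was 0.312, 0.307 and 0.564 in Th1_WT, 0.756, 0.728 and 0.803 in Tfh_WT, 0.796, 0.779 and 0.867 in Tfh_OTII, and 0.857, 1.09 and 0.904 in Tfh_tumour. These values do not depend on scaling, and Th1_WT did not overlap the rest. Over the 12 genes of the plus strand, the log2 fold change in Tfh_WT against Th1_WT ran as deposited from 0.65 at mt-Co3 to 2.39 at mt-Cytb. It was not graded by position: mt-Nd2 and mt-Atp8, which lie before mt-Co3, had 1.60 and 1.91. The Spearman correlation of fold change with position was 0.47. mt-Nd5, which lies just before mt-Cytb on that strand, had 276, 306 and 152 TPM in Th1_WT against 988, 909 and 969 TPM in Tfh_WT (2.02 ± 0.28, adjusted p = 0.000176; after scaling 0.95 ± 0.37, adjusted p = 0.103). Its ratio to mt-Nd1 was 0.237, 0.142 and 0.498 in Th1_WT and 0.409, 0.389 and 0.405 in Tfh_WT, so that here Th1_WT overlapped Tfh_WT through its replicate 3. In mt-Nd1 the same contrast gave 1.38 ± 0.53 (adjusted p = 0.0535).

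mt-Nd6 is the only protein gene on the minus strand. It had 1748, 1371 and 1325 TPM in Tfh_tumour, 1223, 1182 and 1318 TPM in Tfh_WT, 1260, 1567 and 1257 TPM in Tfh_OTII, and 533, 429 and 180 TPM in Th1_WT. It kept 5.06% to 5.84% of mitochondrial TPM in 11 of the 12 libraries and 2.27% in Th1_WT replicate 2. Among the other complex I genes, mt-Nd2 had 1740, 1207 and 1278 TPM in Tfh_tumour, above the 936 to 1136 TPM of Tfh_WT, and mt-Nd4 had 1520, 1176 and 1239 TPM against 804 to 974 TPM. mt-Nd3 had 1056, 668 and 637 TPM in Tfh_tumour and 761, 757 and 756 TPM in Tfh_WT, and mt-Nd4l had 1792, 1200 and 1733 against 1311, 919 and 1197 TPM, both with overlap. None of these was called in Tfh_tumour against either Tfh culture in the fit of all 12 libraries. In the added limma fit without the Th1_WT libraries, mt-Nd2 was called higher against Tfh_OTII as deposited (adjusted p = 0.0447), but not after scaling (0.218).

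Genes that work with the chain were read beside it, from lists that were not part of the members. In Tfh_tumour against Tfh_OTII, Sdha, the flavin-binding subunit of complex II, fell from 216, 224 and 239 TPM to 108, 116 and 103 TPM (-1.05 ± 0.20, adjusted p = 0.00389). Sdhb, Sdhc and Sdhd were not called. Cyc1, cytochrome c1, fell from 50.1, 53.4 and 57.8 to 32.7, 24.8 and 26.5 TPM, while Cycs, cytochrome c itself, had 43.4, 39.2 and 38.5 TPM in Tfh_tumour and 39.3, 50.0 and 40.7 TPM in Tfh_OTII. Of 48 assembly factors 6 fell and 1 rose, where 6.86% of all genes tested fell and 6.77% rose in this comparison. Ndufaf2, which assists complex I, fell by 1.43 log2, and Tmem126b, another complex I assembly factor, rose from 16.6, 14.2 and 11.9 to 31.3, 30.5 and 28.3 TPM (1.04 ± 0.23, adjusted p = 0.00816). Of 18 genes of the tricarboxylic acid cycle 4 fell, led by Idh2 (40.9, 41.1 and 35.8 to 11.2, 8.85 and 8.90 TPM), and of 26 carrier and import genes 6 fell, among them the ADP/ATP carrier Slc25a4. Of 19 genes for mitochondrial DNA and transcription 2 fell, and of 20 for mitochondrial RNA processing 2 fell. Tfam, which packages mitochondrial DNA and starts its transcription, had 87.9, 59.8 and 57.8 TPM in Tfh_tumour, 115, 126 and 123 TPM in Tfh_OTII, 82.9, 75.9 and 71.0 TPM in Tfh_WT and 12.98, 26.9 and 24.8 TPM in Th1_WT. In Tfh_tumour against Tfh_WT none of the genes on these lists was called both ways, nor was any in Tfh_OTII against Tfh_WT. In Tfh_WT against Th1_WT, where 9.07% of all genes rose, 3 of the 48 assembly factors did (Ndufaf2, Cox17 and Pet117), as did Sucla2, 1 of the 18 genes of the tricarboxylic acid cycle, and none fell.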

How the data were processed

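RNA libraries were made from 300000 CD4+ T cells each with a stranded total RNA kit and ribosomal RNA removal and read as pairs of 75 bases, per the labels' protocols. The deposited values are TPM, which the authors made with kallisto on mm10, per the submitters' processing notes. Neither the version of kallisto nor its transcript set is given in the sources used here. Each file gives 1 value per gene symbol for 1 library, and the values of a library sum to 1000000. The files hold no counts, so depth is unknown and no intervals for counting error are given. Groups were read from titles and source names, and 97.96% of symbols matched GENCODE vM21, which gave positions on GRCm38.

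The 23308 genes averaging 1 TPM or above in any group were modelled on the log2(TPM + 1) scale with limma 3.58.1 (R 4.3.3), using a mean for each group, all 12 libraries and a trended prior variance. A gene was called where its p, adjusted by Benjamini-Hochberg over all of these, was below 0.05, and each of the 4 comparisons was also fitted after median-of-ratios scaling on 16404 genes. Comparisons share groups and are not independent. The fit was tested on simulated data. Errors of fold changes are limma's standard errors (SE); other errors are SD. Tables and figures were made with Python 3.11.15, pandas 2.3.3, numpy 2.4.6 and matplotlib. Words of 31 bases were compared with all GENCODE vM21 transcripts.

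The rule for named genes took all 13 mitochondrial genes, up to 5 nuclear members highest and 5 lowest per comparison among those called both ways at a mean of at least 5 TPM, a fixed set of core subunits, and members with alternative forms. The text gives a part of these and some others singled out after their values were seen (Ndufv3 and Ndufb11 in Tfh_tumour against Tfh_WT, Uqcrb, Atp5l, Tfam and the ratios between genes). The members, lists and rules were chosen with earlier results of these data known. Alternatives were 2 further scalings, a pseudocount of 0.1, no filter and a filter at 5 TPM, a separate fit of each pair of groups, a block for the replicate number, and each library left out in turn. A fit without the Th1_WT libraries and the adding of nuclear copies to the mitochondrial sum were chosen after seeing the data. 1 gene that the rule names is not reported here.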

Additional observations from a re-analysis of the deposited data

How the results depend on the processing

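Of 180 alternative values of the counts and mean ratios, other than those with a library left out, 139 stayed close (counts within 1.5 times, or equal where 0; mean ratios within 1 SD between libraries) and 41 moved. The cause was not tested. In Tfh_WT against Th1_WT, the 35 nuclear genes called higher became 1 by median-of-ratios scaling, 1 by trimmed-mean scaling, 4 when renormalised without the 14 other gene models at 10000 TPM or more, and 0 with the block and scaling. The 1 called lower became 20, 14, 22 and 15 by the same settings and 2 with the block alone. The 10 mitochondrial genes called higher became 0 under each of those 4 settings. With no filter and with a fit of the 2 groups alone there were 6, and the latter fit called 47.9% of all genes higher. In Tfh_tumour against Tfh_WT, the 1 nuclear gene called lower became 2 by median-of-ratios scaling, trimmed-mean scaling and a 5 TPM filter, 3 when renormalised, 19 without the Th1_WT libraries and 6 without them after scaling. In Tfh_OTII against Tfh_WT, 0 became 17 nuclear genes higher, 1 nuclear gene lower and 1 mitochondrial gene higher in a fit of the 2 groups, and 2 nuclear genes higher without Th1_WT. In Tfh_tumour against Tfh_OTII, the 26 nuclear genes called lower became 42 in a fit of the 2 groups, where 9.28% of all genes were. The count was 48 without the Th1_WT libraries and 43 without them after scaling. When renormalised 3 were called higher, and without Th1_WT 1 mitochondrial gene was called higher and 1 lower. Among these settings, the share of all genes was computed only for median-of-ratios scaling, fits of 2 groups and calls both ways without Th1_WT. The other counts have no background beside them.

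With medians in place of sums, the mean ratio of mitochondrial to nuclear TPM was 13.3 in Th1_WT, 19.2 in Tfh_WT, 19.2 in Tfh_OTII and 25.7 in Tfh_tumour, and the tumour libraries (19.9 to 29.9) overlapped the cultures. Without mt-Atp8 and mt-Nd4l it was 2.31 in Tfh_WT, 2.03 in Tfh_OTII and 3.46 in Tfh_tumour, and with nuclear copies added 3.41, 3.15 and 5.89. With 1 library left out, the mean ranged from 1.75 to 3.42 in Th1_WT, 2.85 to 3.13 in Tfh_WT, 2.50 to 2.68 in Tfh_OTII and 4.95 to 5.46 in Tfh_tumour.

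With 1 library of the groups compared left out, as deposited and after scaling together, the counts in Tfh_WT against Th1_WT ranged from 0 to 47 nuclear genes higher, 1 to 23 lower and 0 to 13 mitochondrial genes higher. Without Th1_WT replicate 3 and after scaling, 16 were lower. In Tfh_tumour against Tfh_WT they ranged from 0 to 3 nuclear genes lower, and in Tfh_tumour against Tfh_OTII from 11 to 30 lower and 0 to 1 higher, with 16 lower after scaling without Tfh_tumour replicate 3 and without Tfh_OTII replicate 2. The other counts stayed at 0, and no share of all genes was computed for these fits. Of the 25 genes that fell in Tfh_tumour against Tfh_OTII, 9 were called under every alternative. Without Th1_WT replicate 3 and after scaling, the fold change in Tfh_WT against Th1_WT was negative for 9 of the 13 mitochondrial genes: mt-Atp6 (-0.53), mt-Atp8 (-0.29), mt-Co1 (-0.62), mt-Co2 (-0.46), mt-Co3 (-1.29), mt-Nd1 (-0.66), mt-Nd2 (-0.60), mt-Nd3 (-1.15) and mt-Nd4l (-0.0309). That of mt-Co1 also did without Tfh_WT replicate 1 (-0.0751) and without Th1_WT replicate 1 (-0.0066). None of these was called.

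The replicate block treats equal replicate numbers as pairs. Same-numbered libraries did not deviate together: 3 of 18 such pairs correlated over 0.1 (-0.39 to 0.30), and 0 libraries correlated best with their own number. Pairs with other numbers correlated at -0.28 to 0.36, the highest being Tfh_WT replicate 1 with Tfh_OTII replicate 3. Whether libraries of different groups share a factor under other numbers was not tested. With the block, 31 nuclear genes were higher and 2 lower in Tfh_WT against Th1_WT, with 9 mitochondrial genes higher. There was 1 nuclear gene lower in Tfh_tumour against Tfh_WT, 21 lower in Tfh_tumour against Tfh_OTII (25 after scaling) and 0 in Tfh_OTII against Tfh_WT. No share of all genes was computed with the block. Depth is unknown, so what it limits cannot be stated; 3 libraries per group limit each test.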
